A study of Homo sapiens with 6 samples.

Results

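AGR2 and 9 further genes of mucus production were followed in H358 cells, a human lung cancer line of epithelial type, with the RNA-binding protein RBM47 knocked down. The 10 genes are AGR2, AGR3, the transcription factor genes SPDEF and CREB3L1, and the mucin genes MUC5AC, MUC5B, MUC1, MUC4, MUC16 and MUC20. They were taken by symbol from a deposited table of 57150 genes, of which 14419 had a mean of at least 1 FPKM (fragments scaled to transcript length and to the size of the library) and were tested. Had a symbol occurred in several rows, the row would have been chosen by the highest mean FPKM, but each of the 10 symbols had 1 row. All 10 genes passed the filter on low values. SPDEF did so only through its control libraries (mean 1.39 FPKM, against 0.980 FPKM in RBM47 KD libraries). They were proposed with earlier results of these libraries known, so the counts below describe them and are no independent support.

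RBM47 KD cells had received lentiviral short hairpin RNAs against RBM47, and control cells a control knockdown. Polyadenylated RNA was sequenced from 3 libraries per group, described as biological triplicates. All cells belong to 1 line, and neither how many hairpins were used nor their sequences is stated in the sources used here. RBM47 stood at 12.01, 13.4 and 13.5 FPKM in the RBM47 KD libraries, against 85.2, 92.4 and 87.9 FPKM in the control libraries, which left 14.6% of the control mean. Each library listed between 14220 and 14526 genes at 1 FPKM or more. The number of fragments per library is unknown. Relative depth, read from the lowest nonzero values, was 1.03 and 1.05 in RBM47 KD replicates 2 and 3 and 1.09, 1.08 and 1.16 in control replicates 1, 2 and 3, with RBM47 KD replicate 1 set to 1. By this ratio, found in 25% to 26.8% of the genes used, each control library was deeper than each RBM47 KD library. The sources do not say how libraries were scaled, so that reading assumes scaling by library size. For genes near the floor such a difference cannot be told apart from the knockdown.

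Mucins are large, heavily O-glycosylated proteins of wet epithelia. Gel-forming mucins such as MUC5AC and MUC5B are secreted and make up airway mucus, whereas MUC1, MUC4 and MUC16 span the membrane and form a coat on the cell surface. AGR2 is a protein of the endoplasmic reticulum from the disulfide isomerase family, and mice without it lose intestinal MUC2 protein. SPDEF, an ETS family factor, drives goblet cell formation in mouse airways and gut, and CREB3L1 is a membrane-bound factor that is released by proteolysis.

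Of goblet and club cell markers, H358 libraries held the members among them but none of the others at a mean of 1 FPKM or more. Of 9 goblet and club cell markers 4 had a mean of at least 1 FPKM, and these were the members AGR2, MUC5B, MUC5AC and SPDEF. SPDEF averaged under 1 FPKM in the RBM47 KD libraries. The defining club cell gene SCGB1A1 and the goblet cell gene TFF3 were listed at 0 in all 6 libraries, as were SCGB3A1 and BPIFB1. SCGB3A2 reached at most 0.685 FPKM. Of 6 alveolar type 2 markers 2 reached a mean of 1 FPKM, and SFTPB was listed at 0 throughout. General epithelial markers (EPCAM, CDH1, KRT8, KRT18 and KRT19, 5 of 5 detected) summed to between 2519 and 2576 FPKM in RBM47 KD libraries, against 2910 to 3150 FPKM in control libraries. Summed ciliated cell markers ran from 98.7 to 125 FPKM against 127 to 134 FPKM, and leukocyte markers, of which CD68 alone reached 1 FPKM, from 24.2 to 31.4 FPKM against 31.9 to 35.01 FPKM. Basal cell markers overlapped at 18.8 to 21.2 FPKM against 19.2 to 23.6 FPKM, and so did fibroblast markers at 26.8 to 35.1 FPKM against 32.5 to 35.9 FPKM. Endothelial markers summed to 1.501 to 1.73 FPKM against 1.89 to 2.33 FPKM, and alveolar type 2 markers to 1.80 to 2.46 FPKM against 2.42 to 3.54 FPKM. All cells were of 1 line, so these sums are RNA levels of that line and do not count cells of other types. Within the line, fewer cells with an RNA and less of it per cell cannot be told apart in bulk RNA. The part of these marker sums in the results below was not tested.

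AGR2 and MUC5B fell in RBM47 KD cells, and no member rose. In limma over all genes, 2 of the 10 were lower at an adjusted p under 0.05, none was higher and 8 did not pass. Among all 14419 tested genes 6.34% were called lower, 5.1% higher and 11.4% in either direction. The median log2 fold change of the 10 genes was -0.22, against 0.0061 over all tested genes. Fold changes are RBM47 KD over control on the log2(FPKM + 1) scale, which understates differences of low genes. In 6 members (AGR2, SPDEF, MUC5B, MUC5AC, MUC1 and MUC20) every RBM47 KD value lay below every control value, and in 4 the groups overlapped. Such a complete separation, with RBM47 KD lower, occurred in 16.8% of all tested genes, and a separation in either direction in 34% of them. SPDEF passed the filter on low values only through the control libraries, so its separation and its part in the median are no support.

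**Figure D1:**
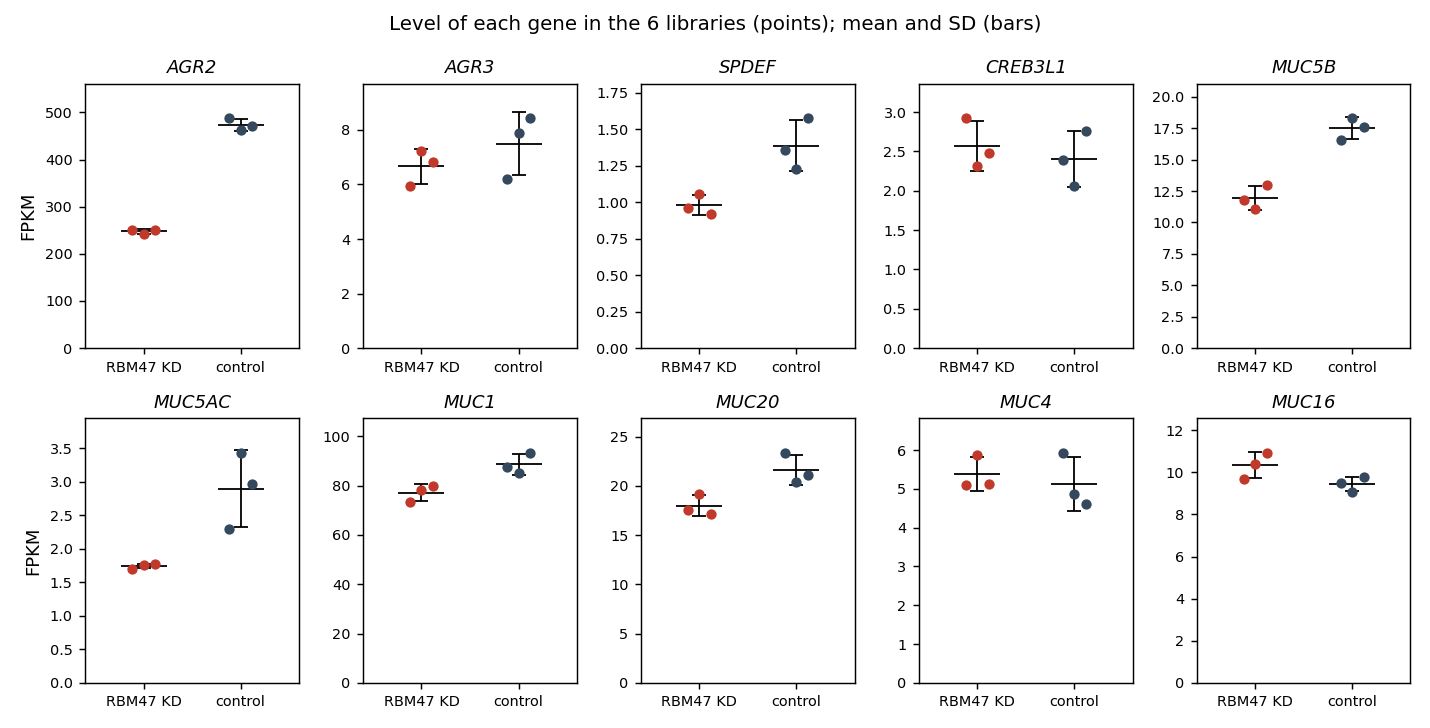
FPKM of the 10 genes in each library (points; vertical axes from 0), with RBM47 KD libraries left and control libraries right, and the mean and SD of 3 libraries as bars. AGR2 averaged 248 FPKM in RBM47 KD and 474 FPKM in control libraries, and the points of AGR3, CREB3L1, MUC4 and MUC16 overlap between the groups.

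AGR2 (ENSG00000106541, hg19 chr7:16831435-16873057, minus strand) was the most abundant member. Its level was 251, 241 and 251 FPKM in the RBM47 KD libraries, against 488, 463 and 470 FPKM in the control libraries. Values within a group lay close together, with a coefficient of variation of 2.30% in RBM47 KD and 2.69% in control libraries, and a wide gap separated the groups. Means were 248 ± 5.71 FPKM and 474 ± 12.7 FPKM (SD, n = 3 each), which is 52.3% of the control level. On the log2(FPKM + 1) scale AGR2 fell by 0.93 (SE 0.04, 95% interval -1.03 to -0.84, limma, adjusted p = 0.000103). A two-sided exact permutation test gave p = 0.1, below which no such test of 3 against 3 libraries can go. By control level AGR2 ranked 185 among the 57150 genes, and by absolute log2 fold change 159 among those tested.

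AGR3 (ENSG00000173467, chr7:16899029-16921611), the closest paralogue of AGR2, lies 25971 bases away on the same strand and had a far lower level. It was listed at 5.96, 7.21 and 6.83 FPKM in the RBM47 KD libraries, against 6.19, 7.88 and 8.43 FPKM in the control libraries. The groups overlapped, with control replicate 1 within the RBM47 KD range. Its log2 fold change was -0.14 (95% interval -0.42 to 0.13, limma, adjusted p = 0.469), an interval that includes both a fall and a rise. AGR2 divided by AGR3 was 42.2, 33.5 and 36.8 in RBM47 KD libraries, against 78.8, 58.8 and 55.8 in control libraries. Every RBM47 KD ratio lay below every control ratio, by 0.77 on the log2 scale, with p = 0.1 in the two-sided exact permutation test, again the smallest it can give.

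The sequences before the RefSeq starts of AGR2 and AGR3 are shown because these neighbours differed in that ratio. Each is the 250 bases upstream of the RefSeq start (build GRCh38.p14, minus strand, AGR2 at chr7:16805000-16805249 and AGR3 at chr7:16881984-16882233), 5′ to 3′, with capitals marking the TATA box letters TATAAA.
AGR2: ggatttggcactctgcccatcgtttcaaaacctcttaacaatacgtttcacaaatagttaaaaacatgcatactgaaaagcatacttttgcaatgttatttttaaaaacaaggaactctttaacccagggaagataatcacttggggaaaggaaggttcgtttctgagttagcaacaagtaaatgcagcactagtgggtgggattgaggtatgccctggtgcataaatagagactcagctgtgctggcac
AGR3: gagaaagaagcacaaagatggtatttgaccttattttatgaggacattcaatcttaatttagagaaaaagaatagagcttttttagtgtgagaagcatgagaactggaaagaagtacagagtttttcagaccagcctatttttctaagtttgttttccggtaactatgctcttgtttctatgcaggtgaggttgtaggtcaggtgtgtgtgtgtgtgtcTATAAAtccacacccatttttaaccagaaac
The RefSeq start of AGR2 lies inside the longer locus deposited for AGR2, so its window is not upstream of that whole locus. For AGR3 the window lies at the upstream end of the deposited locus. Both windows are poor in G and C, at 40.4% and 36.4%, where the median over all 35116 RefSeq windows is 58%. TATAAA, searched on both strands as exact letters, occurs in the AGR3 window and not in that of AGR2, and in 10.7% of all windows. The AGR2 window holds the similar letters CATAAA near its end, where TATAAA stands in AGR3. Lack of a TATA box in AGR2 is therefore not read from this search. Neither window holds ACGTG (the core of elements bound by XBP1, ATF6 and CREB3 family factors, in 18.5% of windows), CCAAT (32%), the forkhead letters TGTTTAC (2.98%) or the AP-1 letters TGACTCA (4.2%), each searched on both strands. Of the 10 genes 7 had such a window, and the single ACGTG among them was upstream of SPDEF.

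Both transcription factor genes were expressed at low levels. SPDEF (ENSG00000124664, chr6:34505579-34524110) stood at 0.963, 1.05 and 0.922 FPKM in the RBM47 KD libraries, against 1.36, 1.23 and 1.58 FPKM in the control libraries. The groups did not overlap, and the gap between them was about as large as the SD of the controls. At 70.5% of the control mean its log2 fold change was -0.27 (SE 0.13, 95% interval -0.57 to 0.04, limma, adjusted p = 0.226). CREB3L1 (ENSG00000157613, chr11:46299212-46342972) had 2.92, 2.32 and 2.47 FPKM in RBM47 KD libraries, against 2.40, 2.06 and 2.76 FPKM in control libraries. These ranges overlapped widely (log2 fold change 0.07, 95% interval -0.22 to 0.36, adjusted p = 0.753).

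The gel-forming mucin genes lie side by side on chromosome 11, 21931 bases apart. MUC5B (ENSG00000117983, chr11:1244296-1283406) fell to 11.8, 11.1 and 12.98 FPKM in the RBM47 KD libraries, against 16.6, 18.3 and 17.6 FPKM in the control libraries. Its highest RBM47 KD value was well under its lowest control value. Means were 11.96 ± 0.950 FPKM and 17.5 ± 0.859 FPKM (SD, n = 3 each), 68.3% of the control level, with a log2 fold change of -0.52 (SE 0.07, 95% interval -0.69 to -0.35, limma, adjusted p = 0.00615). MUC5AC (ENSG00000215182) was listed at 1.70, 1.76 and 1.77 FPKM in RBM47 KD libraries, against 2.29, 3.43 and 2.97 FPKM in control libraries. RBM47 KD values were nearly identical and lay below all controls, which spread by 19.8% (coefficient of variation). The log2 fold change of -0.50 (SE 0.13, 95% interval -0.81 to -0.19) narrowly missed the threshold (limma, adjusted p = 0.0531), and without control replicate 1 it was -0.61 (adjusted p = 0.0383, with 0.0358 to 0.144 over all alternatives). The MUC5AC locus of the table (chr11:1212760-1222364) spans 9605 bases, 22.2% of the 43186 bases that GENCODE release 29 gives this Ensembl identifier, so its FPKM rests on part of the gene.

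MUC5B divided by MUC5AC did not separate the groups, at 6.93, 6.32 and 7.32 in RBM47 KD libraries, against 7.25, 5.33 and 5.93 in control libraries (two-sided exact permutation test, p = 0.3). Together the gel-forming pair summed to 13.7 ± 0.965 FPKM in RBM47 KD and 20.4 ± 1.43 FPKM in control libraries (SD, n = 3 each). AGR2 divided by MUC5B was 21.3, 21.7 and 19.4 in RBM47 KD libraries, against 29.4, 25.3 and 26.7 in control libraries. All RBM47 KD ratios were lower, by 0.38 on the log2 scale, with the exact permutation test at its smallest p of 0.1.

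**Figure D2:**
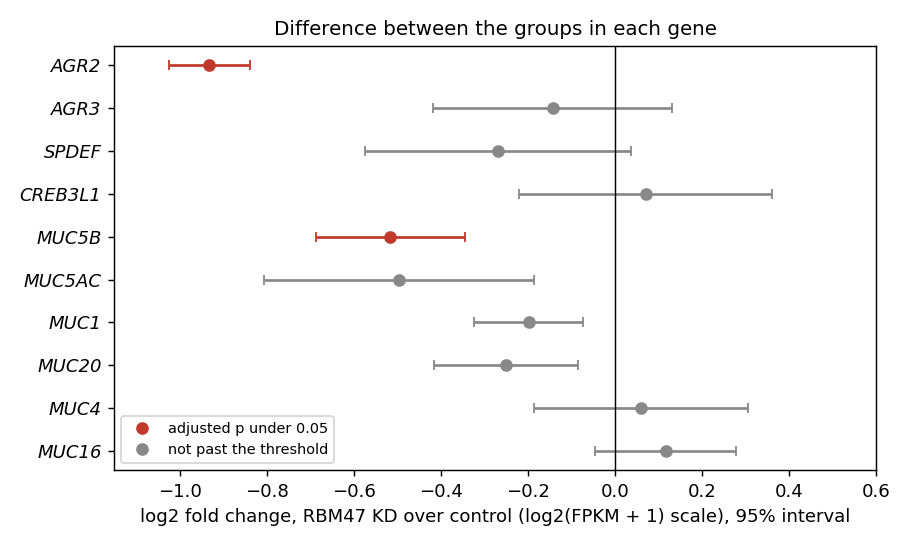
Log2 fold change of RBM47 KD over control for each of the 10 genes (points, with 95% intervals from limma), in red where the adjusted p was under 0.05. AGR2 at -0.93 and MUC5B at -0.52 are red, and the intervals of AGR3, SPDEF, CREB3L1, MUC4 and MUC16 include 0.

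None of the membrane mucins passed the threshold, and they did not all point the same way. MUC1 (ENSG00000185499, chr1:155141884-155162707), a widespread surface mucin whose outer part is shed, was the most abundant mucin with 73.3, 78.2 and 80.0 FPKM in the RBM47 KD libraries, against 87.6, 85.1 and 93.3 FPKM in the control libraries. The groups were apart by a margin similar to the spread within them (87.01% of the control mean, log2 fold change -0.20, 95% interval -0.32 to -0.07, limma, adjusted p = 0.0541). MUC20 (ENSG00000176945, chr3:195384933-195467994) had 17.6, 19.2 and 17.2 FPKM in RBM47 KD libraries, against 23.3, 20.4 and 21.1 FPKM in control libraries. They were again apart (log2 fold change -0.25, 95% interval -0.42 to -0.09, adjusted p = 0.0618).

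MUC4 (ENSG00000145113, chr3:195473636-195539148), known in rat as a ligand of the receptor ERBB2, lies 5641 bases from MUC20 on chromosome 3 and did not separate the groups. It was listed at 5.11, 5.88 and 5.14 FPKM in RBM47 KD libraries, against 5.93, 4.87 and 4.61 FPKM in control libraries (log2 fold change 0.06, 95% interval -0.19 to 0.31, limma, adjusted p = 0.753). MUC16 (ENSG00000181143, chr19:8959520-9092018), the very large mucin that carries the ovarian cancer marker CA125, had 9.67, 10.4 and 10.9 FPKM in RBM47 KD libraries, against 9.50, 9.08 and 9.76 FPKM in control libraries. The lowest RBM47 KD value fell within the control range (log2 fold change 0.12, 95% interval -0.05 to 0.28, adjusted p = 0.313). MUC20 divided by MUC4 was 3.44, 3.27 and 3.34 in RBM47 KD libraries, against 3.94, 4.19 and 4.57 in control libraries, with p = 0.1 in the exact permutation test.

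Some loci of the table are shared with other genes, and the sources used here do not say how shared fragments were assigned. The loci of MUC1 and MUC20 span 294% and 410% of the length GENCODE release 29 gives these genes. MUC1 shares its locus with KRTCAP2 at 155 to 160 FPKM in RBM47 KD and 164 to 174 FPKM in control libraries (log2 fold change -0.11, limma, adjusted p = 0.13) and with TRIM46. MUC20 shares its locus with the long noncoding RNA AC069513.3, on the same strand, at 28.4, 29.1 and 32.9 FPKM in RBM47 KD libraries, against 32.6, 26.7 and 28.6 FPKM in control libraries. FPKM of MUC1 and MUC20 are uncertain to that extent. The pseudogene RAD17P1 in the AGR3 locus reached at most 0.114 FPKM, and an antisense RNA in the MUC5B locus was listed at 0 except in control replicate 1 (0.469 FPKM).

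By control mean, the order of levels per length was AGR2, MUC1, MUC20, MUC5B, MUC16, AGR3, MUC4, MUC5AC, CREB3L1 and SPDEF, and in RBM47 KD libraries MUC5AC stood below CREB3L1. Of the neighbours in that order, MUC5AC and CREB3L1 overlapped in range in the control libraries, and in RBM47 KD libraries no neighbours overlapped. The place of MUC5AC rests on its partial locus. MUC1 supplied 61.9% ± 0.515 of the summed FPKM of the 6 mucins in RBM47 KD libraries and 61.02% ± 1.26 in control libraries (SD, n = 3 each). MUC5B supplied 9.60% ± 0.729 and 12.06% ± 0.804, and MUC16 8.29% ± 0.215 and 6.50% ± 0.0599. Shares of a sum move together, so a smaller share of MUC5B by itself makes the others larger.

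**Figure D3:**
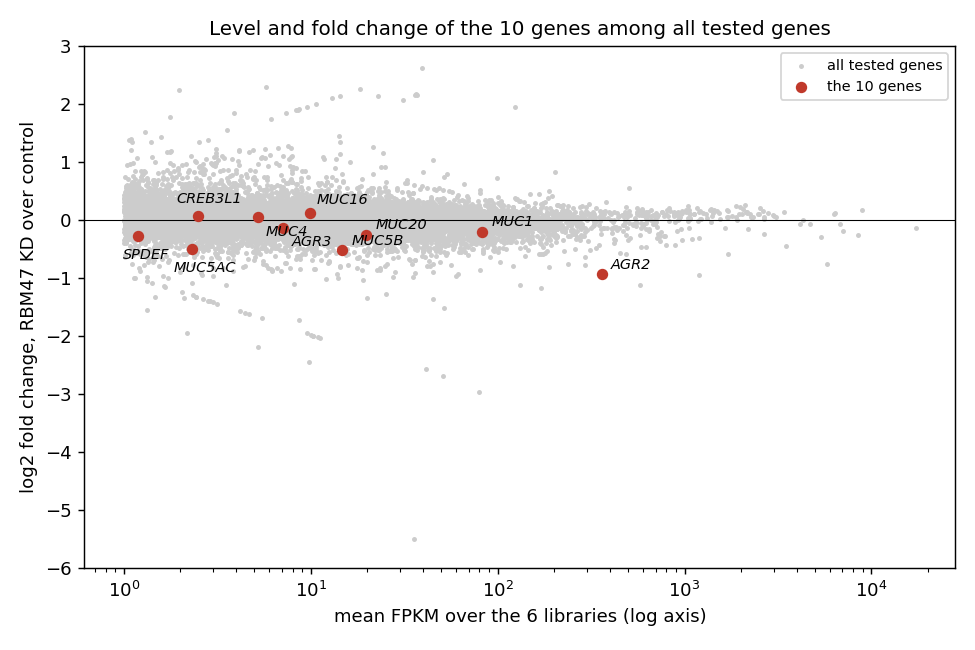
Mean FPKM over the 6 libraries (log axis) against log2 fold change of RBM47 KD over control, with the 10 genes in red among the 14419 tested genes in grey. AGR2 lies at -0.93, which is 159 by rank of absolute log2 fold change, while CREB3L1, MUC4 and MUC16 sit just above 0.

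Outside the 10 genes, the tested genes with a pattern closest to AGR2 were LURAP1L, ULBP2 and SQSTM1. Likeness was the root mean square difference of log2(FPKM + 1), centred on each gene's mean, over the 6 libraries, and it was 0.05 for LURAP1L, 0.05 for ULBP2 and 0.06 for SQSTM1. LURAP1L had 9.63, 8.55 and 9.50 FPKM in RBM47 KD libraries, against 20.1, 18.2 and 17.4 FPKM in control libraries. ULBP2, a ligand of the killer cell receptor NKG2D, had 7.36, 7.03 and 7.14 FPKM, against 13.6, 13.6 and 13.6 FPKM in control libraries. SQSTM1, a receptor of selective autophagy, had 138, 134 and 137 FPKM, against 252, 232 and 237 FPKM. The likeness is a description of 6 values per gene, picked among all tested genes, and no test goes with it.

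Of 23 tested enzymes that build O-linked sugars on mucins 4 were lower, none was higher and 19 did not pass, where 6.34% of all tested genes were lower and 5.1% higher. The counts of the other lists below stand beside the same shares, and with so few genes per list nothing particular to a list is read from them. The enzymes' median log2 fold change was -0.03, against 0.0061 over all tested genes. ST6GALNAC1, which adds sialic acid to the first sugar, had 4.33, 4.34 and 3.64 FPKM in RBM47 KD libraries, against 7.96, 8.43 and 8.56 FPKM in control libraries (log2 fold change -0.87, limma, adjusted p = 0.00205). GCNT3, which makes the branched core structures of mucins, had 4.59, 3.16 and 3.87 FPKM, against 7.80, 6.52 and 7.38 FPKM (-0.76, adjusted p = 0.00967). These genes were separated between the groups with a gap wider than the spread within either. B3GNT6, which makes a core structure of intestinal mucins, fell by 0.65 on the log2 scale, and GALNT3, which starts O-glycosylation, fell by 0.25. B3GNT6 lost its call without RBM47 KD replicate 1 or control replicates 2 or 3 (highest adjusted p = 0.0651), and GALNT3 without control replicate 3 (0.0542), so that 2 enzymes were called without that library.

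Of 16 other mucins 13 were under a mean of 1 FPKM and 3 were tested, with 2 lower, none higher and a median of -0.27. MUC15, a membrane mucin, had 6.99, 7.23 and 7.42 FPKM in RBM47 KD libraries, against 9.88, 9.62 and 8.51 FPKM in control libraries (log2 fold change -0.33, limma, adjusted p = 0.0328). CD164, a small sialomucin, fell by 0.27 (adjusted p = 0.0136). Of the fits without 1 library, MUC15 kept its call in that without control replicate 3 alone (highest adjusted p = 0.109), and CD164 lost its call without RBM47 KD replicate 2 (0.0601) or control replicate 2, where none of the 3 was called. With libraries scaled to the same total FPKM, 1 of the 3 was lower, and with no filter on low values 1 of 14. With a replicate block in the fit none was called (limma, adjusted p = 0.0506 for CD164 and 0.0874 for MUC15).

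Of 26 secretory cell products 19 lay under a mean of 1 FPKM, 11 of them at 0 throughout. Of the 7 tested 2 were lower and 1 higher, with a median of -0.38. That median depended on the filter on low values, at 0.09 over the 3 genes averaging 5 FPKM or more and -0.06 over 15 genes with no filter. FCGBP, a protein bound to secreted mucus, had 0.822, 0.882 and 0.787 FPKM in RBM47 KD libraries, against 1.68, 1.79 and 1.63 FPKM in control libraries (limma, adjusted p = 0.0268, and 0.055 to 0.0686 without any 1 library). With means of 0.830 FPKM and 1.70 FPKM, FCGBP passed the filter only through its control values. Its place in the count of 2 lower and in the median is therefore no support. PSCA, a surface antigen of glandular epithelia, fell by 0.38 on the log2 scale (adjusted p = 0.00849). WFDC2, a secreted airway protein, rose to 212, 219 and 202 FPKM in RBM47 KD libraries, against 152, 163 and 171 FPKM in control libraries (log2 fold change 0.38, adjusted p = 0.00668). Secretory products thus held calls in both directions. The number lower was 4 with quantile normalization, without a trend or with array weights, and 1 without any 1 library other than RBM47 KD replicate 1.

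Of 19 tested further regulators of secretory cells 3 were lower and none higher, with a median of -0.04, beside 6.34% lower and 5.1% higher among all tested genes. XBP1, a factor of secretory cells and of the unfolded protein response, had 114, 104 and 112 FPKM in RBM47 KD libraries, against 156, 149 and 155 FPKM in control libraries (log2 fold change -0.47, limma, adjusted p = 0.00218). FOXA1, a forkhead factor of airway epithelium, had 19.6, 18.5 and 19.01 FPKM, against 25.7, 26.99 and 26.7 FPKM (-0.46, adjusted p = 0.00298). Neither lost its call without any 1 library. ELF3, an epithelial ETS factor, fell by 0.15 (adjusted p = 0.0447) and lost its call in each fit without 1 library (0.0548 to 0.14), which left 2 called in each but that without RBM47 KD replicate 3, where another member passed.

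Of 5 tested relatives of CREB3L1 and their processing proteases 2 were lower and none higher (median -0.19). CREB3L2 fell by 0.31 on the log2 scale (limma, adjusted p = 0.0114, and 0.0527 without RBM47 KD replicate 2). CREB3 fell by 0.19 (adjusted p = 0.0388), a call lost without any 1 library (0.0551 to 0.124), so that without RBM47 KD replicate 2 or control replicate 3 neither was called. With the same total FPKM or without a trend 1 was lower.

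AGR2 belongs to the thioredoxin-fold proteins of the endoplasmic reticulum, and of 16 tested genes of these and of the stress sensor IRE1 7 were lower and none higher (median -0.20). PDIA4 had 195, 173 and 161 FPKM in RBM47 KD libraries, against 324, 271 and 301 FPKM in control libraries (log2 fold change -0.76, limma, adjusted p = 0.00302). TXNDC11, P4HB and PDIA6 fell by 0.41, 0.35 and 0.28. TXNDC12, the third member of the AGR family, averaged 41.7 FPKM in RBM47 KD and 40.5 FPKM in control libraries (log2 fold change 0.04, adjusted p = 0.61), and was named after its value was seen. The count was 3 of 16 without RBM47 KD replicate 2 or without any 1 of the control libraries, and P4HB lost its call in those 4 fits (highest adjusted p = 0.0769).

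Of 17 tested genes of mucin granule release 2 were lower and 2 higher (median -0.10). Among all tested genes 6.34% were lower and 5.1% higher. RAB27B, a GTPase of secretory vesicles, had 16.8, 18.9 and 20.7 FPKM in RBM47 KD libraries, against 25.9, 28.5 and 27.1 FPKM in control libraries (log2 fold change -0.51, limma, adjusted p = 0.00883), and the syntaxin STX3 fell by 0.39. P2RY2, the nucleotide receptor that triggers mucin release, rose by 0.38, and RAB3D, a further vesicle GTPase, rose by 0.32. RAB3D lost its call without any 1 library (adjusted p = 0.0611 to 0.0951). P2RY2 held only without RBM47 KD replicate 1, and STX3 only without RBM47 KD replicates 1 or 3 (highest adjusted p = 0.0788 for P2RY2 and 0.0787 for STX3). Without any 1 library 1 to 3 were lower and at most 1 was higher, and with no filter on low values 1 was lower and none higher.

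Of 12 tested sheddases, ligands and binding partners of surface mucins and AGR2, 2 were lower and 1 higher (median -0.01). ADAM9, a membrane metalloproteinase, had 135, 133 and 138 FPKM in RBM47 KD libraries, against 198, 213 and 204 FPKM in control libraries (log2 fold change -0.59, limma, adjusted p = 0.00105). LGALS3, a galectin that binds MUC1, fell by 0.39 (adjusted p = 0.00348). ERBB3 rose by 0.22 (adjusted p = 0.0305), a call that was lost without any 1 library (0.0516 to 0.106), while 3 were higher with the same total FPKM. LYPD3, reported as a binding protein of AGR2, missed the threshold at 0.25 (adjusted p = 0.0535) and was named after its value was seen. Small list medians also changed sign with the setting, to 0.03 for these partners with quantile normalization, to 0.01 for the enzymes and for the further regulators without control replicate 2, and to 0.02 for the other mucins with no filter on low values.

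**Figure D4:**
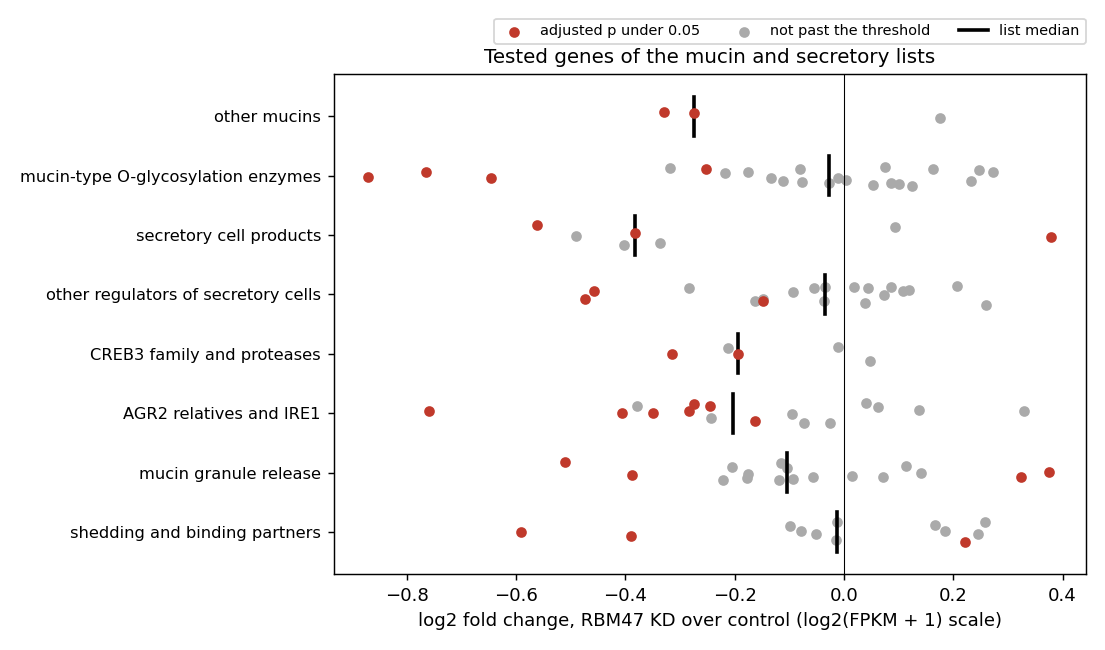
Log2 fold change of RBM47 KD over control of the tested genes in 8 lists (points, red where the adjusted p was under 0.05; vertical bars, list medians). ST6GALNAC1 at -0.87 and GCNT3 at -0.76 stand at the far left of the O-glycosylation enzymes, whose median is -0.03.

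**Figure D5:**
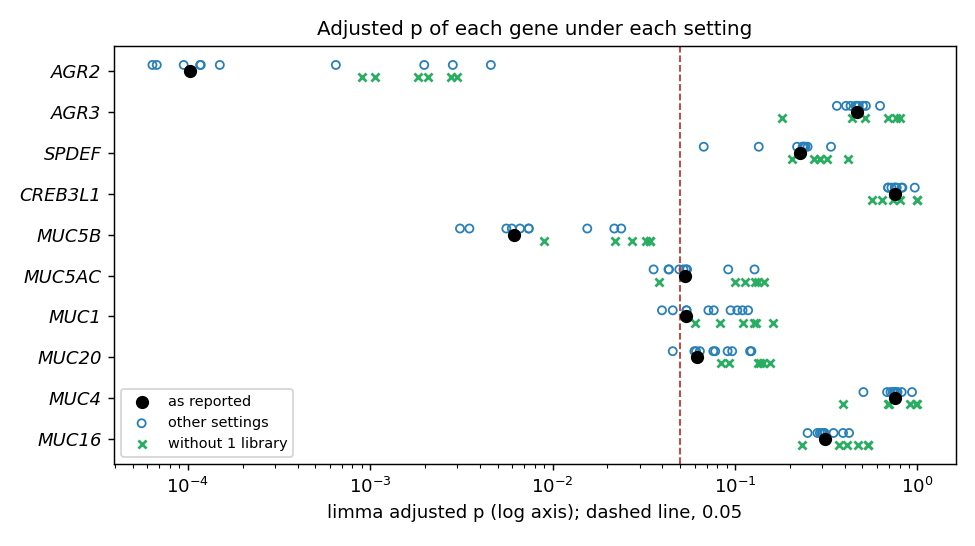
Adjusted p (log axis) of the 10 genes as reported (black), under other settings (blue circles) and without 1 library (green crosses). AGR2 and MUC5B stay left of 0.05 throughout, while MUC5AC, MUC1 and MUC20 lie on both sides of it.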

How the data were processed

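TRIzol-extracted RNA went into paired-end libraries of a stranded mRNA kit, per the labels. TopHat 1.4.1, Cuffdiff 2.2.0 and hg19 appear in the submitters' processing notes. The authors deposited FPKM per gene and library. The sources used here do not say how libraries were scaled or whether counting used strand, and depth is unknown. Loci are hg19, with starts counted from 1.

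Genes averaging 1 FPKM or more were tested with limma 3.58.1 (R 4.3.3, trended prior) on log2(FPKM + 1), RBM47 KD against control, with Benjamini-Hochberg adjustment over all 14419 tested genes and a threshold of 0.05. The script was tested on simulated data. Relative depth is the most frequent ratio (within 0.02 on the log2 scale) of values under 0.3 FPKM in genes alone in their locus. Gene spans and strands came from GENCODE release 29 by Ensembl identifier, and upstream sequences from RefSeq. Figures were drawn with matplotlib 3.10.9.

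The members and lists were chosen with earlier results of these data known. All members are named. Of each list up to 4 called genes with the largest fold change are named, with exceptions stated. Of 21 symbols of AGR2 relatives 19 are in the table, which uses the older names of the others. Alternatives were pseudocounts, filters, scalings, limma with array weights or without its trend, a replicate block, and fits without 1 library each.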

Additional observations from a re-analysis of the deposited data

How the results depend on the processing

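AGR2 and MUC5B were lower with an adjusted p under 0.05 in the reported fit and in all 16 alternatives, at log2 fold changes of -0.95 to -0.85 (AGR2) and -0.57 to -0.47 (MUC5B). The number of members called lower was 4 with a mean of at least 5 FPKM (MUC1 and MUC20 added, 3 low members not tested) and 4 with array weights (MUC1 and MUC5AC added), against 2 as reported. It was 2 to 3 without any 1 library, and none was called higher under any setting. Adjusted p ranged from 0.0358 to 0.144 for MUC5AC, 0.0398 to 0.161 for MUC1 and 0.0456 to 0.156 for MUC20. Without any 1 library, MUC4 ran from -0.0017 (without control replicate 3) to 0.1506, and CREB3L1 from -0.0046 (without control replicate 2) to 0.1445, each crossing 0. The cause was not tested. Of the 157 fold changes of members under alternatives, 147 kept direction and side of the threshold, 8 gained a call and these 2 turned sign.

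Over all tested genes, 736 were called higher and 914 lower. With no filter these were 366 and 550. Without any 1 library they ran from 235 to 483 and from 395 to 772, with fewer libraries in each such fit. With the replicate block they were 348 and 489, and 2 members were again called lower. In the lists this block left 3 of 23 enzymes lower, 1 of 7 secretory products, 2 of 19 further regulators and 1 of 5 CREB3L1 relatives and proteases. It left 4 of 16 AGR2 relatives lower, 2 of 17 granule release genes, 2 of 12 partners and none of 3 other mucins. WFDC2 stayed higher, while RAB3D, P2RY2 and ERBB3 lost their calls. Deviations of same-numbered libraries correlated at 0.019, -0.096 and 0.077 (Pearson, across genes), so the numbers were not taken as pairs. Scaling moved the median log2 fold change of all genes to between 0.0015 and 0.0276.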
